A study of Mus musculus and synthetic construct with 30 samples.

Results

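The ganglionic eminence and olfactory bulb (GE/OB) of E14.5 mouse embryos were compared between *Peril* knockout (KO) and wild-type (WT) littermates. Of the 30 samples in the series, 16 are RNA-seq libraries, and the 4 that carry a GE + OB label are described here. They came from litter 46. The 2 WT libraries are embryos 1 and 3, both male, and the 2 KO libraries are embryos 2 and 7, both female. Genotype and sex therefore cannot be told apart in this tissue. All 4 embryos were offspring of heterozygous parents on a mixed C57BL/6J and 129S6 background backcrossed to C57BL/6J (N3, without Neo), strain Periltm1.1Vlcg. The KO allele carries *LacZ*, the bacterial β-galactosidase gene, in place of the *Peril* gene body, with the *Peril* promoter left in front of it. *Peril* is transcribed from chromosome 3 close to *Sox2*. Genes were kept when at least 2 of the 4 libraries held at least 10 counts and when they lay on an autosome, which left 14240 of 26759 genes.

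The ganglionic eminences are swellings of the ventral embryonic forebrain. Their dividing progenitors express *Dlx* transcription factors and give rise to GABAergic neurons, among them striatal projection neurons and the interneurons that migrate to the cortex and olfactory bulb. The medial, lateral and caudal eminences are told apart by their transcription factors. The olfactory bulb at this age holds early projection neurons that use glutamate.

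The library totals ran from 17594150 to 32146978 counts, with the highest in KO embryo 2. *LacZ* had 3 and 0 counts in the WT libraries and 2087 and 1346 in the KO libraries, as the labels state. *Peril* had 0 counts in all 4 libraries, which allows up to 0.150 CPM, a level scaled to the library total after TMM normalization, in the shallowest one (a limit of 3 counts, for counting error only). It therefore does not check the labels in this tissue. *Xist* and the Y-linked genes matched the labelled sexes in all 4 libraries. The defining genes of the eminences were high, with *Dlx1* at 477 to 522 TPM, a level corrected for transcript length and library total, *Gad1*, a GABA-synthesizing enzyme, at 73.1 to 98.6 TPM and *Nkx2-1*, the marker of the medial eminence, at 47.8 to 75.3 TPM. Of the bulb markers, *Tbx21*, a marker of mitral and tufted cells, was at 0.170 to 0.330 TPM, while *Eomes* and *Tbr1*, which the cortex also expresses, were at 50.7 to 88.8 and 154 to 170 TPM. *Emx1* and *Neurod6*, genes of the cortical excitatory lineage, were at 22.9 to 44.1 and 242 to 340 TPM. In bulk tissue, fewer cells of a type and less RNA per cell cannot be told apart.

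In KO against WT GE/OB, 9 genes passed an adjusted p of 0.05, or 0.0632% of the 14240 genes. Of these, 5 were higher in KO (0.0351%) and 4 were lower (0.0281%). All 9 lie on only 2 chromosomes: 5 on chromosome 3, which carries *Peril*, and 4 on chromosome 14. The other 17 autosomes held none. At an unadjusted p under 0.05 there were 446 genes (3.13%), 202 higher (1.42%) and 244 lower (1.71%), and the median log2 fold change over all tested genes was 0.01. The middle 90% of genes lay between −0.26 and 0.30 on the log2 scale. The groups did not overlap for 27.7% of genes, either with both KO libraries above both WT libraries or the reverse. An exact permutation test of a single gene cannot go below p = 0.333 with 2 libraries against 2, and the test used borrows its estimate of spread from 16 libraries and from all genes. Fitted on the 4 GE/OB libraries alone, the same test called 0 genes with edgeR, and 247 had an unadjusted p under 0.05.

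**Figure D1:**
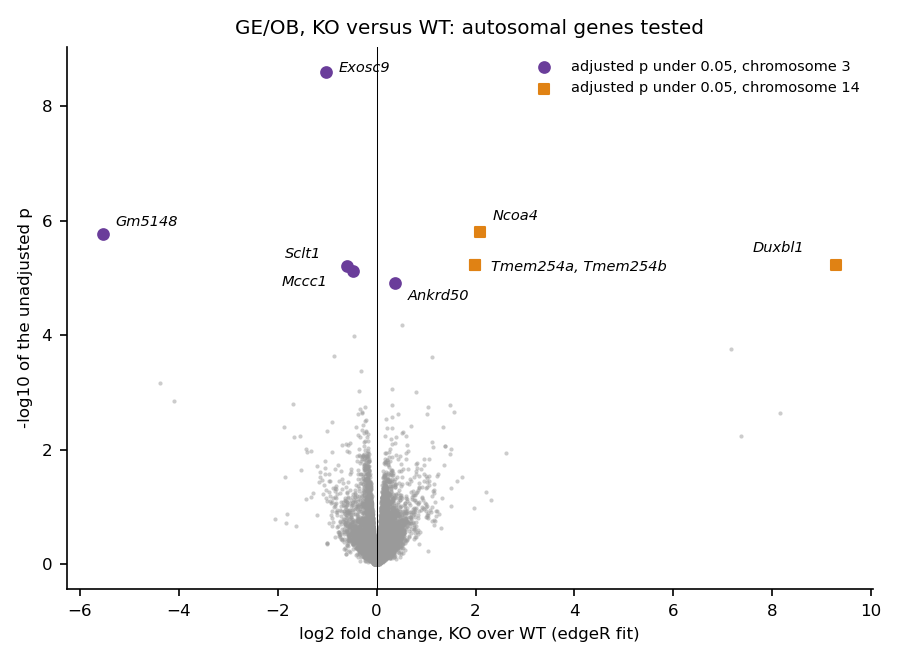
The log2 fold change of KO over WT (horizontal axis) is plotted against −log10 of the unadjusted p (vertical axis) for the 14240 autosomal genes tested in GE/OB. The 9 genes with an adjusted p under 0.05 are named and coloured by chromosome (5 on chromosome 3, circles, and 4 on chromosome 14, squares), and the position of *Duxbl1* depends on the prior count of the fit because it had 0 counts in WT.

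*Exosc9*, a subunit of the RNA exosome that trims and degrades RNA from its 3′ end, showed the smallest p of all genes. It lies on chromosome 3 (36552606 to 36565727, mm10, plus strand), 1.78 Mb from *Peril*. Its level was 76.2 and 70.0 TPM in the WT libraries and 39.3 and 38.0 TPM in the KO libraries. The KO values lay close to each other and the groups did not overlap. The log2 fold change was −1.03 ± 0.09 (standard error, adjusted p = 3.59e-05), a level 0.490 times that of WT. This call held without any 1 of the 4 libraries.

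*Mccc1*, a subunit of the mitochondrial carboxylase that acts in leucine breakdown, lies on the same chromosome (35959312 to 36000678), 1.22 Mb from *Peril*. It stood at 24.5 and 25.4 TPM in WT and at 18.5 and 17.8 TPM in KO, again without overlap. The log2 fold change was −0.48 ± 0.07 (adjusted p = 0.0135). *Bbs7*, a subunit of the BBSome, the complex that moves membrane proteins into and out of cilia, starts 1.84 Mb from *Peril*. It was at 18.3 and 16 TPM in WT and at 14.4 and 13.2 TPM in KO, and its log2 fold change of −0.17 ± 0.12 did not pass the test (adjusted p = 1.000). *Sox2*, the transcription factor of neural progenitors next to *Peril*, was at 148 and 138 TPM in WT and 125 and 163 TPM in KO. The WT values lay between the KO values, with a log2 fold change of −0.03 ± 0.21.

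Farther along chromosome 3, *Gm5148*, a predicted protein-coding gene 2.95 Mb from *Peril* (37714190 to 37724490), was nearly lost from KO. It had 35 and 39 counts in the WT libraries and 2 and 0 in the KO libraries, or 2.26 and 2.99 TPM against 0.130 and 0 TPM. Per count sequenced, WT was 51.8 times KO, with an exact 95% counting interval of 13.8 to 436 (adjusted p = 0.00820 in the fit). *Sclt1*, a protein of the centriole's distal appendages that is needed for cilia, starts 6.97 Mb from *Peril* (41626720 to 41742514). It fell from 26.9 and 27.2 TPM in WT to 17.1 and 15.4 TPM in KO (log2 fold change −0.59 ± 0.09, adjusted p = 0.0127). *Ankrd50*, which acts in the return of membrane proteins from endosomes to the cell surface, was the one chromosome 3 gene called higher. Its levels were 59.0 and 57.5 TPM in WT and 76.2 and 69.5 TPM in KO, and the log2 fold change was 0.37 ± 0.06 (adjusted p = 0.0195). It starts 3.71 Mb from *Peril* (38449259 to 38484844).

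**Figure D2:**
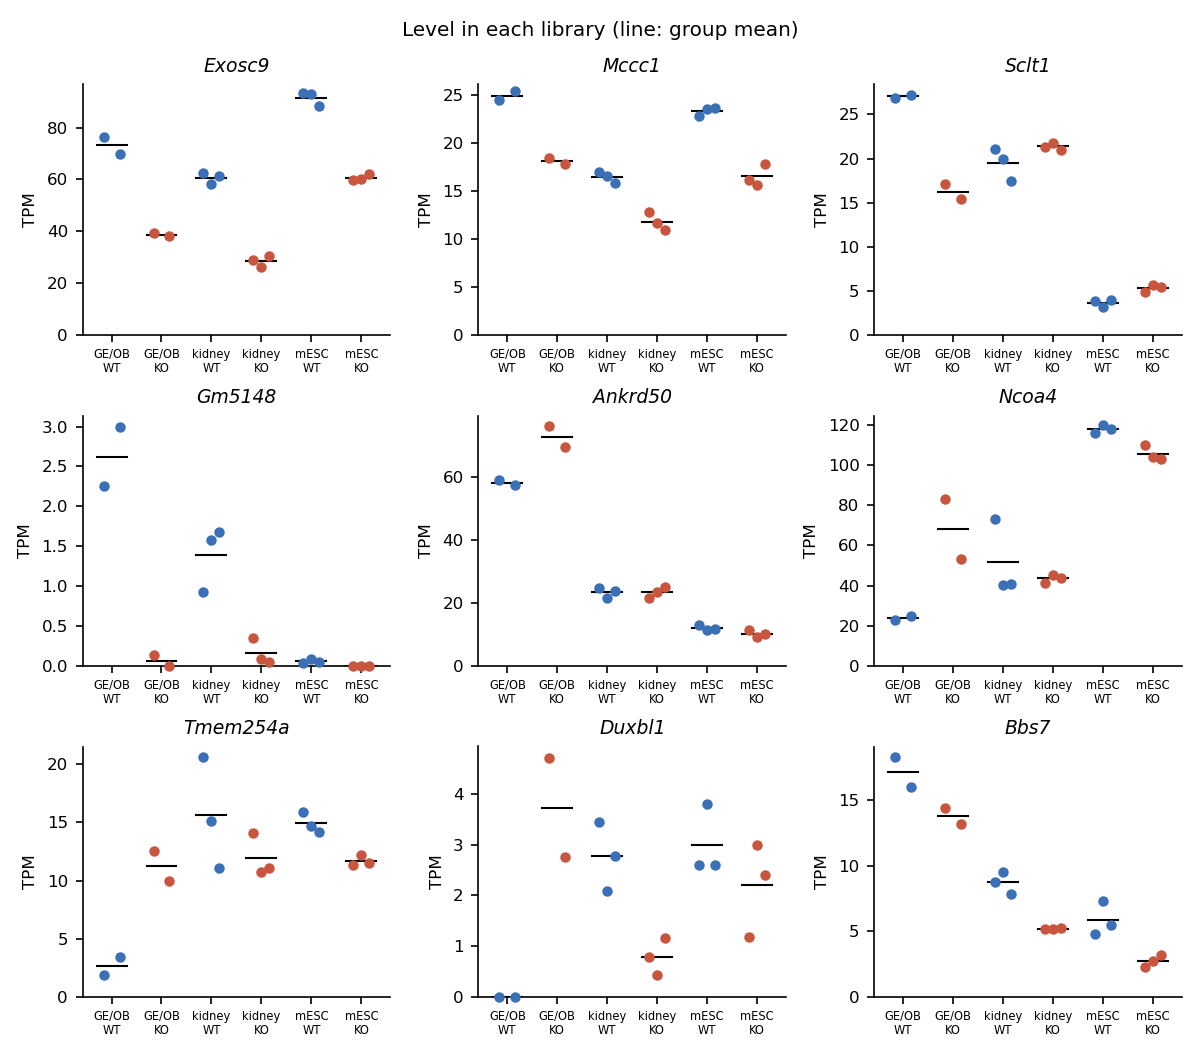
Each panel gives 1 gene's level in TPM (vertical axis, from 0) in all 16 RNA-seq libraries, by tissue and genotype, with WT in blue, KO in red and a line at the group mean. *Exosc9* and *Mccc1* were lower in KO in each tissue, while *Ncoa4* and *Tmem254a* were lowest in the 2 WT GE/OB libraries.

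On chromosome 14, *Ncoa4* was the most abundant of the genes called higher there. It encodes a receptor that carries ferritin, the iron store, to lysosomes for breakdown. It lies at 32159865 to 32179855 on the plus strand. It was at 22.9 and 24.6 TPM in WT and at 83.0 and 53.3 TPM in KO, so that the KO libraries were far above WT but also well apart from each other. The log2 fold change was 2.10 ± 0.28, or 4.29-fold (adjusted p = 0.00820). *Gm6768*, a processed pseudogene on chromosome 12, went the other way, at 58.7 and 60.5 TPM in WT. It was at 0 in KO embryo 2, where *Ncoa4* was highest, and at 31.0 TPM in KO embryo 7. Whether reads were divided between *Ncoa4* and *Gm6768* was not tested, so the level and fold of *Ncoa4* are uncertain.

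The other 3 calls on chromosome 14 belong to a cluster in which *Tmem254* genes, predicted membrane proteins, alternate with *Duxbl* genes, double homeobox genes. *Tmem254a*, *Tmem254c* and *Tmem254b* start 0.05 Mb before and 0.09 and 0.23 Mb after *Duxbl1* (25978577 to 25990088), and *Duxbl2* and *Duxbl3* start 0.14 and 0.28 Mb after it. The expected counts of *Tmem254a* and *Tmem254b* were identical in every library, and these genes are therefore 1 observation. The counts of the other copies differed from each other, but reads that fit several copies are divided among them by the counting method, so the level of a single copy is uncertain. In the RefSeq sequence of GRCm38.p6, the 300 bases from 250 before to 50 after the start of *Tmem254a* are the same, base for base, as those of *Tmem254c*, and a run of 284 of them is found unbroken in the *Tmem254b* window. The *Tmem254a* promoter is printed with that run in capitals, and the *Ncoa4* promoter, from the other end of the called stretch, for comparison. The lower-case bases before the run fall outside the *Tmem254b* window, which begins at the run, and were not compared with that copy. The *Tmem254a* window is chr14:25927623-25927922 on the minus strand, and the *Ncoa4* window is chr14:32159637-32159936 on the plus strand.
Tmem254a: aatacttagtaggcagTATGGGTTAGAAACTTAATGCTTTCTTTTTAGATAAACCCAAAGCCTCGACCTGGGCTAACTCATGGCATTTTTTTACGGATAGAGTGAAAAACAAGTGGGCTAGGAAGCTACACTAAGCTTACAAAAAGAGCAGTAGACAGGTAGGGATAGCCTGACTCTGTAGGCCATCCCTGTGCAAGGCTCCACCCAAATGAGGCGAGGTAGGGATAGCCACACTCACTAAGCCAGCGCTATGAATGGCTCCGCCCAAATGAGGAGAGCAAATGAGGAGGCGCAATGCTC
Ncoa4: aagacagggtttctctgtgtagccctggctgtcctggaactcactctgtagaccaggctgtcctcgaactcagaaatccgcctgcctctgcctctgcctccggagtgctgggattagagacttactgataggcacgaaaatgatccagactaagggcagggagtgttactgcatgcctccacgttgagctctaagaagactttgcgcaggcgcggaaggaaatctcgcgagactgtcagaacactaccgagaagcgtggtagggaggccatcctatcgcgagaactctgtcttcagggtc
The *Tmem254a* window holds 6 CG pairs and the *Ncoa4* window 14, against a median of 7 over 32851 promoters of the same length.

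*Tmem254a* and *Tmem254b* were each at 1.91 and 3.42 TPM in WT and at 12.5 and 9.95 TPM in KO (log2 fold change 1.98 ± 0.30, adjusted p = 0.0127). *Duxbl1* had 0 counts in both WT libraries and 120 and 46 in KO (adjusted p = 0.0127). Since a 0 can come from how reads were divided among the copies, no fold is given for *Duxbl1* alone. *Duxbl2* was at 4.46 and 4.66 TPM in WT and at 11.9 and 15 TPM in KO, and *Tmem254c* was at 8.21 and 5.88 TPM and at 14.6 and 16.5 TPM. Neither passed the adjusted test (adjusted p = 1.000 each). To set aside how reads were split, counts were also summed over each set of copies before the fit, a choice made after the data were seen. The 3 *Tmem254* copies then came to 12 and 12.7 TPM in WT and 39.6 and 36.4 TPM in KO (log2 fold change 1.60 ± 0.27, adjusted p = 0.0340). The 3 *Duxbl* copies came to 6.78 and 6.65 TPM in WT and 23.1 and 23.4 TPM in KO (log2 fold change 1.71 ± 0.25, adjusted p = 0.0125).

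The called genes of both chromosomes were grouped in position. The embryos are of a mixed C57BL/6J and 129S6 background, and the strain of origin of these stretches in each embryo was not tested. Near *Peril*, the KO allele and strain differences linked to it cannot be told apart. The calls on chromosome 3 span 5.74 Mb that hold 31 tested genes, and those on chromosome 14 span 6.23 Mb that hold 52. The latter span is set by *Ncoa4*, whose level is uncertain, 6.18 Mb from *Duxbl1*. The other chromosome 14 calls lie within 0.23 Mb of *Duxbl1*. Within 2 Mb of *Peril*, 22 genes were tested, 2 were called lower and 4 had an unadjusted p under 0.05 (18.2%, against 3.13% of all genes), all of them lower in KO. Besides *Exosc9* and *Mccc1* these were *Dcun1d1*, which promotes attachment of NEDD8 to cullins (log2 fold change −0.22 ± 0.06), and *Atp11b*, a phospholipid flippase (−0.21 ± 0.06), both with an adjusted p of 1.000. For *Dcun1d1* the difference was seen in counts only, since its TPM was 44.3 and 47.4 in WT and 46.5 and 51.0 in KO. From 2 to 10 Mb away the share was 12.2% of 49 genes, from 10 to 30 Mb 5.83% of 103, and beyond that 2.39% of 545. Around *Duxbl1*, a centre chosen because it was called, 9 of 28 genes within 2 Mb had an unadjusted p under 0.05 (32.1%). Of the 9, 6 are the *Tmem254* and *Duxbl* copies. The others were *Il17rd*, an inhibitor of FGF signalling (0.31 ± 0.09), *Slmap* (0.12 ± 0.05) and the ribosomal protein gene *Rps24* (−0.18 ± 0.07). Between 2 and 10 Mb the share was 6.19% of 97. Chromosome 14 as a whole had 6.85% of its 555 genes below that p and chromosome 3 had 4.03% of 719. Outside both chromosomes the share was 2.92% of 12966 genes, with 0 calls by edgeR among 379 genes at an unadjusted p under 0.05, and 3 by DESeq2.

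**Figure D3:**
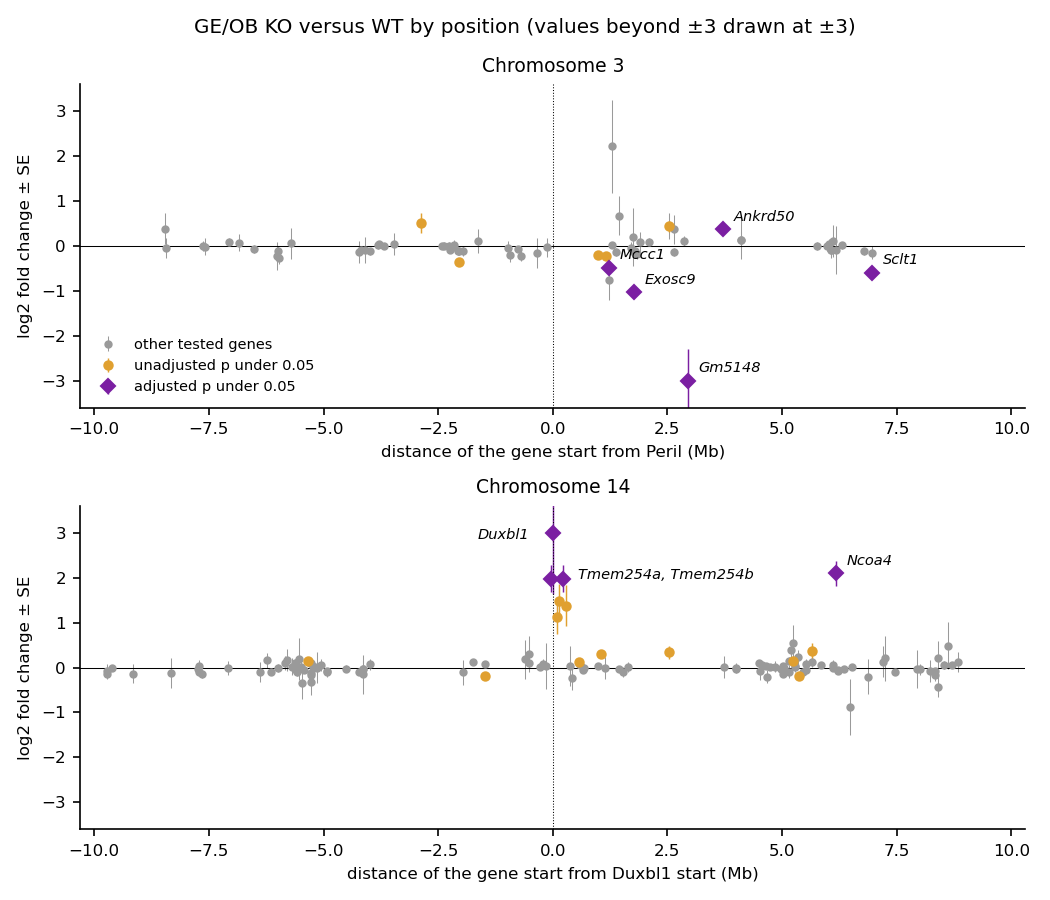
Log2 fold changes of KO over WT with standard errors (vertical axis, values beyond 3 in size drawn at 3) are shown by distance in Mb from *Peril* on chromosome 3 (upper panel) and from the start of *Duxbl1* on chromosome 14 (lower panel), within 10 Mb. Diamonds mark an adjusted p under 0.05 and orange points an unadjusted p under 0.05. The 5 calls on chromosome 3 lie on one side of *Peril*, from 1.22 to 6.97 Mb.

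Most neighbours of the called genes did not pass the test. Within 1 Mb of *Ncoa4*, 21 other genes were tested and 0 were called by edgeR, with 3 at an unadjusted p under 0.05. These were *Capn7*, a calpain protease (−0.18 ± 0.06), *Nisch* (0.14 ± 0.06) and *Hacl1*, a peroxisomal lyase (0.37 ± 0.17), whose TPM values overlapped between groups. Around *Sclt1*, 9 genes were tested and 0 had an unadjusted p under 0.05, the smallest p being that of *Phf17* (log2 fold change −0.12 ± 0.08). *Bbs12*, a chaperonin-like protein needed to assemble the BBSome, lies between *Exosc9* and *Gm5148* and was at 5.92 and 7.29 TPM in WT and 8.80 and 9.25 TPM in KO (0.44 ± 0.12, adjusted p = 1.000).

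The partners of each called gene were examined as lists. Of 14 RNA exosome genes, *Exosc9* alone was called, and the list's median log2 fold change was −0.02 (0.01 over all tested genes). *Exosc3*, a cap subunit of the exosome, was at 34.5 and 28.7 TPM in WT and 26.8 and 35.7 TPM in KO, and the exosome's nucleases *Exosc10* (0.02 ± 0.05) and *Dis3* (−0.02 ± 0.07) had log2 fold changes near 0. Among 12 genes of leucine breakdown, *Mccc1* was the only call (median −0.03). *Mccc2*, which encodes the other subunit of the same enzyme, was at 19.4 and 20.1 TPM in WT and 20.6 and 18.5 TPM in KO (−0.05 ± 0.08). In the ferritin and iron list, 1 of 14 genes was called, *Ncoa4*, and the median was −0.04. Ferritin heavy chain *Fth1* was at 504 and 541 TPM in WT and 531 and 504 TPM in KO (−0.06 ± 0.06), and the light chain *Ftl1* differed by −0.04 ± 0.08 on the log2 scale. *Tfrc*, the transferrin receptor that brings iron into the cell, differed by −0.08 ± 0.09. Among 11 tested genes of the centriole's distal appendages, *Sclt1* was called. *Ccdc41*, which also belongs to the appendages, was lower at an unadjusted p only (−0.16 ± 0.07), while *Cep164* and *Fbf1* were at 0.01 ± 0.06 and 0.07 ± 0.08. Of 13 endosome recycling genes *Ankrd50* was called, and *Vps35* and *Snx27*, which work with it in the retromer pathway, differed by −0.07 ± 0.08 and 0.03 ± 0.06. Of 13 BBSome and chaperonin genes, 0 were called by edgeR and 1, *Bbs12*, had an unadjusted p under 0.05. Of the double homeobox and early embryo genes 4 were tested, and 3 of these were *Duxbl* copies. *Zscan4c*, a gene of the early embryo, had 0 counts in all 4 libraries.

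No gene of the cell type lists was called by edgeR in this tissue. Across all 28 lists 301 distinct genes were tested, 6 lists held 1 called gene each, and these 6 are *Exosc9*, *Mccc1*, *Ncoa4*, *Sclt1*, *Ankrd50* and *Duxbl1*, in lists that were built around them. At an unadjusted p under 0.05 there were 20 (6.64%, against 3.13% of all genes), and they include those 6. They also include *Duxbl2* and *Duxbl3*, copies of *Duxbl1*, and *Bbs12*, a neighbour of called genes. Because of how the lists were built, the share cannot be compared directly with that of all genes. The 13 tested genes shared by the eminences had a median log2 fold change of −0.04 and 0 of them had an unadjusted p under 0.05. Their summed level was 1268 and 1217 TPM in WT and 1242 and 1205 TPM in KO, which overlap, whereas in CPM both KO libraries lay below both WT libraries (0.960 times the WT mean). *Dlx2* was at 133 and 117 TPM in WT and 119 and 134 TPM in KO, and *Gad1* at 84.7 and 90.0 TPM and 98.6 and 73.1 TPM. For both genes the groups overlapped.

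By region, the medial eminence list (*Nkx2-1*, *Lhx6*, *Lhx8* and others) summed to 571 and 587 TPM in WT and 641 and 571 TPM in KO, and the list of lateral eminence and striatum to 691 and 769 TPM and 763 and 671 TPM. *Lhx6*, which interneurons of the medial eminence need, differed by −0.08 ± 0.21 and *Isl1*, a factor of striatal projection neurons, by −0.04 ± 0.24 on the log2 scale. The caudal eminence list did not overlap between groups, with 292 and 280 TPM in WT and 334 and 329 TPM in KO, 1.16 times the WT mean (1.09 times in CPM). *Nr2f2*, the caudal eminence factor that makes up much of that sum with *Nr2f1*, was at 84.5 and 79.8 TPM in WT and 109 and 90.9 TPM in KO (log2 fold change 0.19 ± 0.09, adjusted p = 1.000). *Htr3a*, also on the caudal list, went the other way, at 2.70 and 4.56 TPM in WT and 2.51 and 2.34 TPM in KO (−0.61 ± 0.33). Of the 6 tested genes of the caudal list, 5 had a log2 fold change above 0. The olfactory bulb list stood at 426 and 438 TPM in WT and at 468 and 505 TPM in KO, also without overlap (1.13 times the WT mean). Its median log2 fold change was 0.19 (0.01 over all tested genes), and 9 of its 10 tested genes were above 0. An unadjusted p under 0.05 was reached by 2 of them, against 3.13% of all genes. These were *Cdhr1*, a cadherin of mitral and tufted cells, at 1.46 and 3.90 TPM in WT and 6.87 and 2.77 TPM in KO, and *Trh*, which encodes thyrotropin-releasing hormone, at 0.660 and 1.00 TPM and at 2.38 and 1.16 TPM. Neither passed the adjusted test, both were highest in KO embryo 2, and the *Cdhr1* groups overlapped.

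For many lists of other cells the groups overlapped. The cortical excitatory list summed to 890 and 832 TPM in WT and 712 and 911 TPM in KO, so that the KO libraries enclosed the WT ones. Within it *Neurod6*, a factor of maturing excitatory neurons, was lower in both KO libraries (340 and 316 TPM against 242 and 295 TPM, −0.33 ± 0.10, adjusted p = 1.000). *Otp*, a hypothalamic factor, was at 3.04 and 4.39 TPM in WT, 11.7 TPM in KO embryo 2 and 4.88 TPM in KO embryo 7, and *Sim1*, another hypothalamic factor, was at 0.540 to 0.580 TPM in 3 libraries and at 1.64 TPM in KO embryo 2. Both genes were highest in that 1 library. The radial glia and Notch list was at 2957 and 2826 TPM in WT and 2699 and 3147 TPM in KO, and the dividing cell list at 2132 and 1860 TPM and 1782 and 2275 TPM. Microglia and macrophage genes summed to 54.2 to 70.0 TPM and endothelial and pericyte genes to 125 to 152 TPM, with overlap between groups. Erythroid genes summed to 3182 to 3782 TPM. Choroid plexus genes summed to 20.2 to 22.8 TPM, most of it from *Otx2*. Mesenchymal genes summed to 8.32 and 8.24 TPM in WT and 8.96 and 8.55 TPM in KO, without overlap, but their groups overlapped in CPM. For single genes, the share without overlap in CPM was 27.7%. Median log2 fold changes of the tested genes were 0.04 for young neurons (11 genes), 0.04 for GABA receptors and neuropeptides (13), 0.20 for the oligodendrocyte lineage (5, with no overlap of the summed levels, at 1.13 times the WT mean), 0.13 for hypothalamus, thalamus and septum (8), and 0.04 each for olfactory epithelium (5) and for hypoxia and glycolysis (11). In the last list *Ndrg1*, a stress-responsive gene, differed by −0.27 ± 0.11 (adjusted p = 1.000). Among 10 immediate early and stress genes 0 had an unadjusted p under 0.05 in the edgeR fit. The part of these cell type differences in the calls was not tested.

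**Figure D4:**
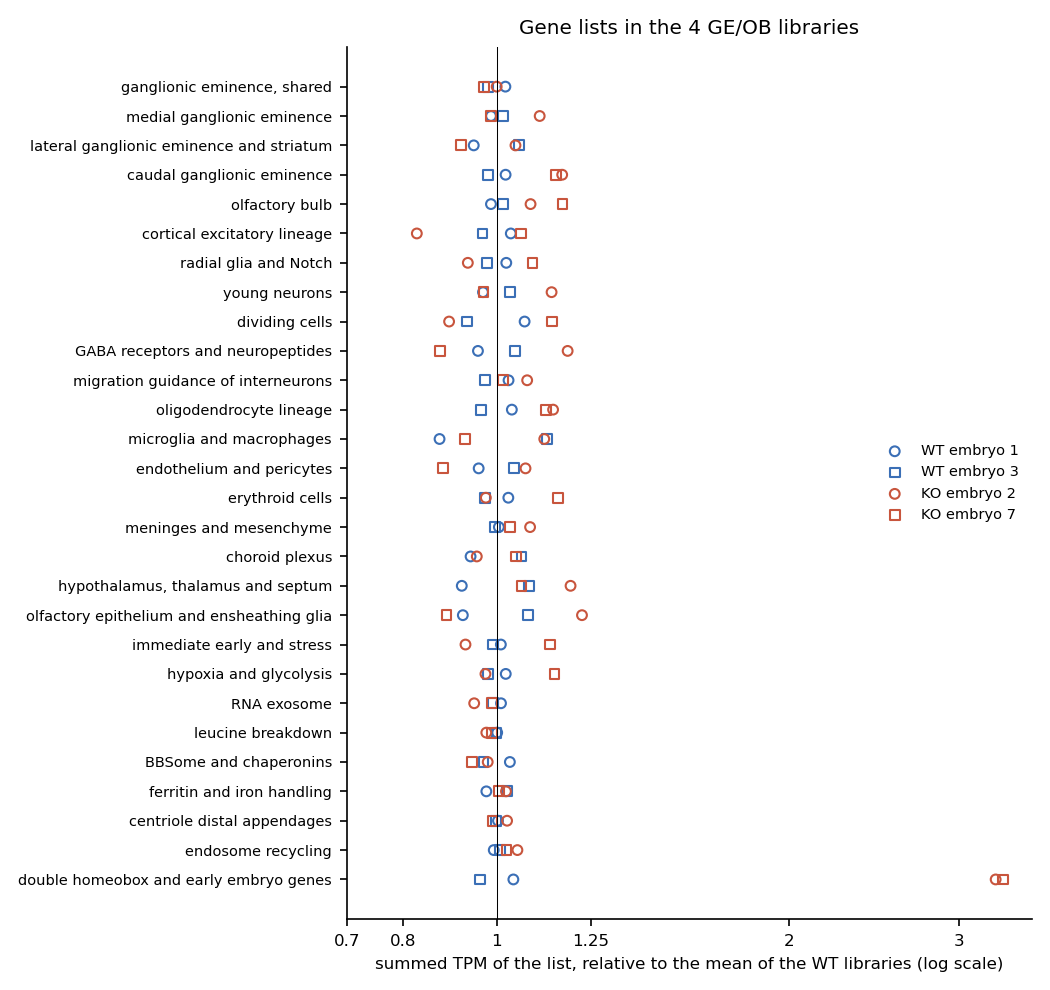
Each row is 1 of 28 gene lists, and each symbol is the summed TPM of the list in 1 GE/OB library relative to the mean of the 2 WT libraries (horizontal axis, log scale), with WT in blue and KO in red. Apart from the list of double homeobox and early embryo genes, at 3.30 times WT, the group means lie between 0.942 and 1.16 times WT.

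Among genes of interneuron migration, *Slit2*, a secreted guidance cue that repels migrating neurons and axons, came closest to the threshold. It was at 17.9 and 15.8 TPM in WT and at 24.5 and 26 TPM in KO, a log2 fold change of 0.51 ± 0.09 (adjusted p = 0.0932). The DESeq2 test put its adjusted p at 0.00360. *Slit2* was also higher in KO mouse embryonic stem cells in the edgeR fit (0.49 ± 0.07, adjusted p = 6.12e-04). In kidney its log2 fold change was 0.29 ± 0.07 (adjusted p = 0.226 in the edgeR fit), so the rise was not particular to GE/OB. The chemokine receptors *Cxcr4* and *Ackr3*, which steer interneurons through the cortex, differed by 0.05 ± 0.14 and −0.04 ± 0.10, and *Nrp1* and *Nrp2*, the semaphorin receptors, by −0.03 ± 0.10 and 0.23 ± 0.18.

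The same genes were set beside the kidney (litter 43, with 3 embryos of each genotype) and mouse embryonic stem cells (mESC, 3 wells of 1 WT clone and 3 of 1 KO clone), which share no library with GE/OB. Of the 14240 genes, the same fit called 0.126% in kidney (0.0281% higher and 0.0983% lower in KO) and 7.63% in mESC (2.65% higher and 4.99% lower). *Exosc9* fell in all 3 settings: its KO levels were 38.7 ± 0.891 TPM in GE/OB (SD, n = 2), 28.4 ± 2.25 TPM in kidney (SD, n = 3) and 60.6 ± 1.21 TPM in mESC (SD, n = 3), against WT levels of 73.1 ± 4.38, 60.7 ± 2.23 and 91.4 ± 2.84 TPM. The log2 fold changes of the kidney and mESC were −1.22 ± 0.07 and −0.72 ± 0.07, and the GE/OB effect did not differ from either past the threshold (differences of 0.19 ± 0.11 and −0.31 ± 0.11, adjusted p = 1.000 and 0.232). For *Mccc1* the kidney and mESC values were −0.62 ± 0.06 and −0.52 ± 0.06, and its differences from GE/OB were 0.14 ± 0.09 and 0.04 ± 0.09. *Bbs7* was lower in KO kidney (−0.62 ± 0.10, adjusted p = 0.0110) and KO mESC (−1.03 ± 0.11, adjusted p = 1.48e-05). Its GE/OB effect differed from that of mESC by 0.86 ± 0.16 (adjusted p = 0.00892) and from that of kidney by 0.45 ± 0.15 (adjusted p = 1.000). *Gm5148* was also lower in KO kidney, at 0.160 ± 0.165 TPM against 1.39 ± 0.413 TPM in WT (SD, n = 3 each, adjusted p = 0.00537), and was at 0.0900 TPM or less in every mESC library.

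The remaining called genes did not pass the test in the same direction outside GE/OB. *Sclt1* was at 19.5 ± 1.85 TPM in WT kidney and 21.3 ± 0.396 TPM in KO kidney (SD, n = 3), a log2 fold change of 0.01 ± 0.07, and it was higher in KO mESC (0.52 ± 0.08, adjusted p = 0.00108). Its GE/OB effect differed from that of mESC by −1.11 ± 0.12 (adjusted p = 1.43e-04) and from that of kidney by −0.60 ± 0.11 (adjusted p = 0.0980). *Ankrd50* was at 23.3 TPM in both kidney groups, and its GE/OB effect differed from that of kidney by 0.44 ± 0.08 (adjusted p = 0.0557) and from that of mESC by 0.53 ± 0.08 (adjusted p = 0.00228). *Ncoa4* was at 40.3 to 120 TPM across the 12 kidney and mESC libraries, above both WT GE/OB libraries, and its log2 fold change was −0.43 ± 0.20 in kidney and −0.23 ± 0.20 in mESC. The 3 *Tmem254* copies together were at 52.9 to 115 TPM in those libraries, so the 2 WT GE/OB libraries were the lowest of all 16 for both. For the *Tmem254* sum the KO GE/OB libraries, at 36.4 and 39.6 TPM, were also below every kidney and mESC library. The *Duxbl* copies summed to 5.32 to 13.1 TPM in the other 12 libraries, a range that holds both WT GE/OB values, and the 2 KO GE/OB libraries were the highest of all 16. In kidney the *Duxbl* sum was lower in KO, at 7.19 to 12.7 TPM in WT and 5.32 to 6.53 TPM in KO. In mESC it was also lower, at 11.9 to 13.1 TPM in WT and 5.70 to 9.10 TPM in KO. Of the GE/OB effects, 5 genes (0.0351%) differed from the kidney effect, all in the higher direction. These were *Duxbl1*, *Ncoa4*, *Tmem254a*, *Tmem254b* and *Myh8*, a muscle myosin that fell in KO kidney (−2.08, adjusted p = 2.49e-04). From mESC, 204 genes (1.43%) differed, 141 in the higher (0.990%) and 63 in the lower direction (0.442%).

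**Figure D5:**
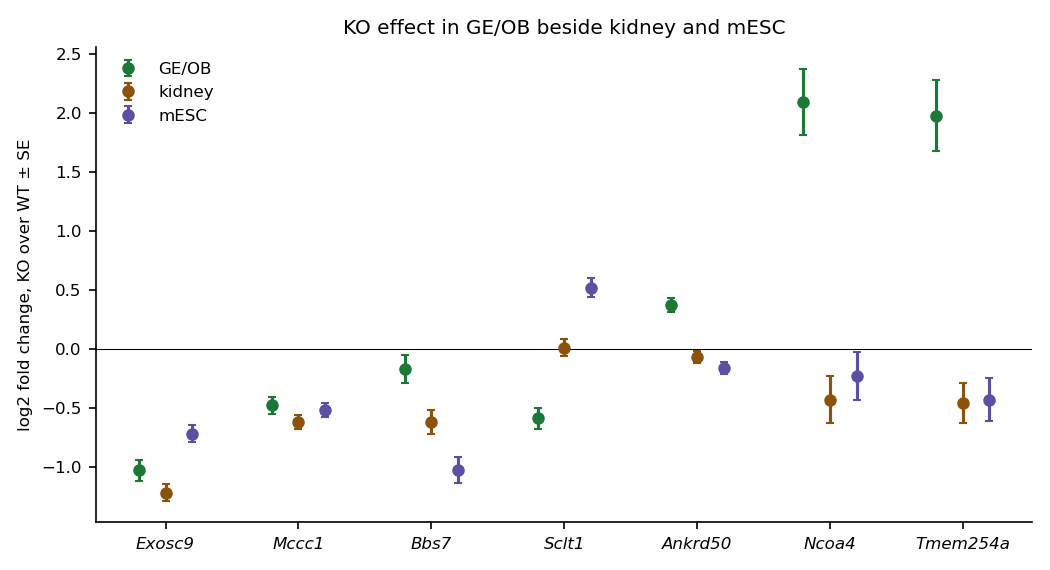
Log2 fold changes of KO over WT with standard errors (vertical axis) are shown for 7 genes in GE/OB (green), kidney (brown) and mESC (purple). *Exosc9* and *Mccc1* lie below 0 in each setting, and *Ncoa4* and *Tmem254a* lie near 2 in GE/OB and below 0 in the other settings.

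Since both KO embryos were female and both WT embryos male, the comparison was also fitted with sex as a covariate, estimated from the kidneys, where both sexes occur in both genotypes. In that fit, added after the data were seen, *Exosc9*, *Ncoa4*, *Tmem254a* and *Tmem254b* stayed below an adjusted p of 0.05, while *Gm5148* (0.0622), *Duxbl1* (0.0860), *Sclt1* and *Mccc1* (0.187 each) and *Ankrd50* (0.407) did not. The value of *Duxbl1* depends on the prior count, because both WT GE/OB libraries had 0 counts, and is not compared. The log2 fold changes of *Gm5148*, *Sclt1*, *Mccc1* and *Ankrd50* hardly moved, at −5.53, −0.59, −0.50 and 0.35, against −5.53, −0.59, −0.48 and 0.37 without the covariate. That fit takes the effect of sex to be equal in both tissues. It gave *Dlx2* a log2 fold change of −4.63, although *Dlx2* was at 0 to 0.740 TPM in kidney and its GE/OB libraries overlapped, so its values hold only for genes expressed in both tissues.

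Among genes with a mean of at least 1 TPM and no overlap between genotypes, the largest fitted changes outside the called genes were in 7 genes that did not pass the test, and 6 of these were below 15 TPM in every GE/OB library. *Gm10709*, a processed pseudogene on chromosome 9, was at 5.57 and 5.24 TPM in WT and 0.420 and 0 TPM in KO (adjusted p = 0.614). *Gm3373* on chromosome 14 was at 1.47 and 1.61 TPM and at 0.450 and 0.690 TPM, and *Gm13304* on chromosome 4 at 3.34 and 4.70 TPM and at 1.19 and 1.08 TPM. *Gm6768* on chromosome 12 is the processed pseudogene that went opposite to *Ncoa4*. It was at 58.7 and 60.5 TPM in WT, 0 in KO embryo 2 and 31.0 TPM in KO embryo 7. In the other direction, *Gm12166* on chromosome 11 and *Gm21541* on chromosome 4 were listed at 0 in both WT libraries and at 2.63 and 1.93 TPM and 1.90 and 2.91 TPM in KO (adjusted p = 0.206 and 1.000). *RP23-220D12.12* on chromosome 2 was at 4.37 and 0 TPM in WT and 10.9 and 14.2 TPM in KO. *Gm13304* and *Gm21541*, which went opposite ways, lie near each other on chromosome 4 (from 42114817 and from 41903610). Division of reads among similar genes was not tested for any gene of this group.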

How the data were processed

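Poly(A) RNA libraries of microdissected GE/OB were sequenced by the authors, who aligned reads to mm10 with bowtie2 and quantified genes with RSEM on GENCODE vM2, lncRNAs and *LacZ* (RSEM's version is not given in the sources used here). The deposited files hold expected counts, which need not be whole where reads fit several genes, and TPM, which the authors' pipeline scaled by effective length to the same sum in each library. Expected counts were rounded. GENCODE vM21 gave the positions of 25862 genes (96.6%), and RefSeq the promoters. The MPRA table was not used.

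All 16 RNA-seq libraries entered 1 fit with a coefficient for each tissue and genotype, here with edgeR 4.0.16 (TMM factors, quasi-likelihood test) in R 4.3.3 on 14240 autosomal genes, with Benjamini-Hochberg adjustment over them. An adjusted p under 0.05 was a call. Standard errors are the size of the log2 fold change over √F. Differences between tissues are contrasts of that fit. Each GE/OB and kidney library is 1 embryo, while the mESC libraries are wells of 1 clone per genotype. Those wells enter the shared estimate of spread. TPM values were only described. The genes named are *LacZ*, *Peril*, *Sox2*, *Exosc9*, *Mccc1* and *Bbs7*, every called gene, the 5 largest changes in each direction, the first 4 members and the smallest p of each of 28 lists, and neighbours within 1 Mb. Members, lists and tests were chosen with earlier results of these data known. Alternatives were DESeq2 1.42.0, fewer libraries, RLE factors, other filters, all chromosomes, an adjusted p under 0.1, robust dispersions and leaving out each library. Further fits were added after seeing the data (summed copies, and sex as a covariate). The scripts were tested on simulated data. Tables and figures were made with Python 3.11.15, pandas 2.3.3 and matplotlib 3.10.9. Of 348 list entries, 5 symbols matched no gene. Intervals and limits cover counting error only.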

Additional observations from a re-analysis of the deposited data

Results flagged for a closer look

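The genes below were singled out because their KO effect in GE/OB differed from that in another tissue by a contrast of the same edgeR fit. On chromosome 14, *Ncoa4* differed from the kidney effect by 2.53 on the log2 scale (adjusted p = 0.0103) and from the mESC effect by 2.33 (adjusted p = 0.00188). The pseudogene *Gm6768*, opposite to *Ncoa4* in GE/OB, was at 0 to 24.6 TPM in WT kidney and 25.1 to 27.1 TPM in KO kidney. It was at 0 in mESC. A division of reads between *Ncoa4* and *Gm6768* was not tested, so these differences are uncertain. *Tmem254a* and *Tmem254b*, with identical counts, each differed by 2.44 from kidney (adjusted p = 0.0103) and by 2.41 from mESC (adjusted p = 0.00167). *Duxbl1* differed by 11.45 from kidney (adjusted p = 0.00552) and by 9.64 from mESC (adjusted p = 0.00313), values that depend on the prior count of the fit because both WT GE/OB libraries had 0 counts. On chromosome 3, *Sclt1* differed from the mESC effect by −1.11 (adjusted p = 1.43e-04), *Ankrd50* by 0.53 (adjusted p = 0.00228) and *Bbs7* by 0.86 (adjusted p = 0.00892). GE/OB and kidney came from different litters and mESC from 1 clone of each genotype, and tissue cannot be told apart from litter or clone in these differences. Sex coincides with genotype in GE/OB but not in kidney or mESC, so tissue cannot be told apart from sex in them either.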

How the results depend on the processing

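No paired analysis was possible because the WT embryos (1 and 3) and KO embryos (2 and 7) are littermates whose labels name no pairs. None of the 9 called genes changed direction under any setting in which it was tested. The count of 9 calls (5 higher, 4 lower) became 0 with the 4 GE/OB libraries alone (0 higher and 0 lower, 247 genes at an unadjusted p under 0.05) and 2 (1 higher, 1 lower, *Duxbl1* and *Exosc9*) without mESC. It ranged from 1 to 8 when each GE/OB library was left out, with 0 to 5 higher and 1 to 3 lower. *Exosc9* alone was called without WT embryo 1. *Exosc9* was the one called gene that kept its call in all 4 of these fits, and *Mccc1*, *Sclt1* and *Ankrd50* lost theirs in each. Without KO embryo 2, 2 of the 9 calls were kept and 6 further genes called. The lone library of an arm is then taken to vary like the others. RLE factors and both other filters gave the same 9 genes, DESeq2 gave these and 3 more, robust dispersions lost *Ncoa4*, and all chromosomes added *LacZ* and *Tsix*. For the difference from kidney, 5 calls became 12 with DESeq2 (10 higher, 2 lower), 1 without mESC (1 higher), 10 at an adjusted p under 0.1 (9 higher, 1 lower) and 0 to 5 without 1 library (0 to 5 higher, 0 lower). For the difference from mESC, 204 calls (141 higher, 63 lower) became 334 with DESeq2 (225 higher, 109 lower), 344 at an adjusted p under 0.1 (233 higher, 111 lower) and 93 to 233 without 1 library (57 to 163 higher, 36 to 77 lower). The causes were not tested. Depth limits genes such as *Duxbl1* and *Gm5148*, which rest on at most 120 and 39 counts in a library.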
